A study of Rattus norvegicus with 10 samples.

Results

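The genes of actin, tubulin and the motor proteins that run on microtubules were measured in the rat brain after 1 week of calorie restriction (CR, feeding below the usual intake). A member was any gene whose symbol began with Acta, Actb, Actc, Actg, Actr, Arpc, Cfl, Pfn or Tpm (the actin class), Tuba, Tubb, Tubg or Stmn (the tubulin class), or Kif, Klc, Dync or Dynl (the motor class), on probe sets that carry exactly 1 gene symbol. This gave 98 genes of the 14218 with such a probe set, 27 of actin, 19 of tubulin and 52 of motors, on 167 of the 31099 probe sets. *Cflar* and *Tpmt* share a stem but code for a caspase regulator and a methyltransferase, and were left out. Of several probe sets of a gene, the one with the highest mean log2 signal was used.

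All groups were male Wistar rats, an outbred laboratory strain, 6 weeks old when the restriction began. The restricted rats received 5, 10, 20 or 30% less food for 1 week, and the control rats received their full intake of the same diet. Every rat was fasted for 16 h before its brain was taken, so the control rats were fasted too, and the tissue is described in the methods as the hypothalamus area of the brain. RNA of 5 rats was pooled for each group and read on 1 Affymetrix rat array, which leaves 4 CR arrays, 1 control array and no repeat of any group.

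Actin polymerises into thin filaments that shape the cell, and the Arp2/3 complex, cofilin, profilin and tropomyosin control where these filaments branch, shorten, grow and stay stable. Tubulin forms microtubules, hollow tracks that run the length of axons and dendrites. Kinesins carry cargo along these tracks mostly outwards, dynein carries it back to the cell body, and the stathmins bind free tubulin and destabilise microtubules. In neurons this machinery supports growth cones, dendritic spines and axonal transport, and in dividing cells tubulin and many kinesins build the mitotic spindle.

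Signals are MAS5 values on a linear scale and are given for 5, 10, 20 and 30% CR in that order, followed by the control. A log2 difference is the mean log2 signal of the 4 CR arrays minus that of the control array, and its ± is the SD over the 4 CR arrays (n = 4). The CR arrays are 4 levels of restriction and not replicates, so this SD includes any effect of level. The test was limma on the 15521 probe sets whose mean log2 signal exceeded the 50th percentile (a signal of 53.3), with Benjamini-Hochberg adjustment and a threshold of 0.05. The fit takes the spread of the control from the CR arrays, because it has 1 control array, and a p-value measures only the spread between pools.

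The control array stood apart from the others. Pairs of CR arrays had correlations of 0.912 to 0.922 in log2 signal, and pairs of a CR array and the control had 0.852 to 0.874, over probe sets that are not independent of each other. Signals under 10 made up 11.7 to 14.4% of the values on the CR arrays and 24.0% on the control array. All 12 probe sets of the poly-A spike-ins, bacterial RNAs added before labelling, were lower on the CR arrays, with a median log2 difference of -1.23. Of 10 hypothalamic markers, 9 passed the signal filter and *Pomc* did not, with signals of at most 14.8. Among the 9, 3 were higher in CR (*Npy* at 1.25, *Cartpt* at 0.64 and *Sst* at 0.55) and 1 was lower (*Trh*, -1.09), and the 10 had a summed signal of 23876 to 26028 on the CR arrays against 21354 on the control. The pituitary markers summed to 1972 to 2807 on the CR arrays against 966 on the control, and the 3 of the 5 that passed the signal filter were all higher in CR. In bulk RNA, fewer cells of a type and less RNA per cell cannot be told apart, and the part that any of these differences had in the results was not tested. Diet and array cannot be told apart in any comparison with the control.

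Genes of the actin and tubulin classes that passed the test were mostly lower in CR. Those of the motor class were lower and higher at shares near those of all probe sets. Of the 98 members, 77 passed the signal filter, 25 of actin, 16 of tubulin and 36 of motors. Of these 77, 19 were lower in CR (24.7%) and 8 were higher (10.4%), while over all probe sets tested 11% were lower and 14.5% were higher. Over the 9479 tested genes by their brightest probe set, 11.3% were lower and 11.6% higher, so the share of higher members was near that of all genes. By class, 11 actin genes were lower and 2 higher (44% and 8%), and 5 tubulin genes were lower and 0 higher (31.2% and 0%). Of the motor genes 3 were lower and 6 higher (8.33% and 16.7%), near the shares of all probe sets tested. At an unadjusted p under 0.05 by limma, 28 members were lower (36.4%, against 17.3% of all probe sets tested) and 13 higher (16.9%, against 21.1%). All 27 genes that passed had the 4 CR arrays on the same side of the control, with folds of 1.28 to 3.59 downwards and 1.30 to 3.45 upwards.

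The median difference was -0.32 for the actin class, -0.26 for the tubulin class and 0.020 for the motor class, against 0.030 over all probe sets tested and -0.020 over the 9479 tested genes by their brightest probe set. On all 4 CR arrays 40 members lay below the control and 21 lay above it, and for all probe sets tested these shares were 33.1% and 37.1%. The remaining 16 members had the control inside the range of the CR arrays. Among those 40 genes were 17 of the 25 actin genes, 9 of the 16 tubulin genes and 14 of the 36 motor genes.

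The split changed with median scaling and stayed nearly the same with quantile and cyclic loess scaling. Quantile scaling gave 19 members lower and 7 higher (8.45% and 11.3% of all probe sets tested). Cyclic loess gave 20 lower and 8 higher (11.7% and 12.7%). With each array centred on its median, the median of all probe sets tested moved by -0.44, to -0.41, and 44 members were then lower and 1 higher, against 32.4% and 6.59% of all probe sets tested. All 19 lower members kept their call under that scaling, which moves every difference down by the same amount. Of the 8 higher members 1, *Dync1li1*, kept its call. Without the intensity trend in limma, 9 members were lower and 4 higher (11.7% and 5.19%), against 6.48% and 11.2% of all probe sets tested. Since median scaling shifts all probe sets alike, it cannot change the class medians relative to the median of all probe sets. These were -0.35 for actin, -0.28 for tubulin and -0.010 for motors before and after it. Under quantile scaling these values were -0.26, -0.31 and -0.043.

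**Figure D1:**
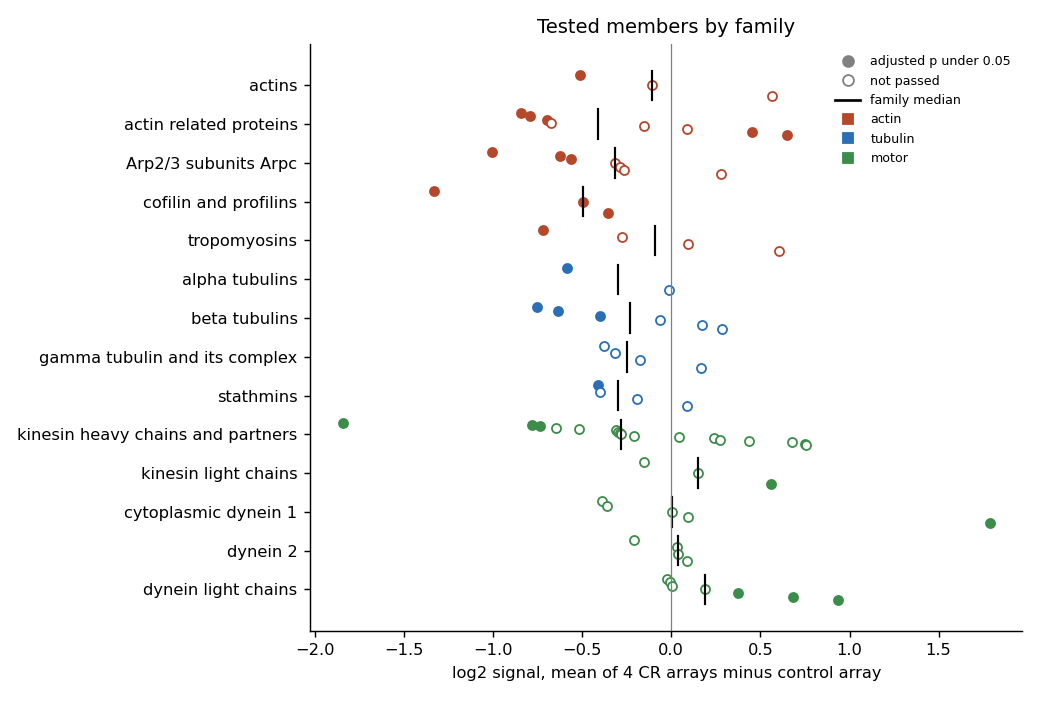
Log2 signal difference (mean of the 4 CR arrays minus the control array, x axis) of the 77 tested members by family, filled for an adjusted p by limma under 0.05, with black bars at the family medians. The medians run from -0.50 for cofilin and the profilins to 0.19 for the dynein light chains, and the 2 furthest points are *Kif5c* at -1.84 and *Dync1li1* at 1.79.

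The actins themselves were *Actg1*, the cytoplasmic gamma actin found in all cells, and the muscle actins. *Actg1* had signals of 4742, 4448, 4306 and 4428 in the CR arrays, against 6383 in the control. Every CR array was below the control, and the log2 difference was -0.51 ± 0.059 (adjusted p = 0.0045 by limma). *Acta2*, the actin of vascular smooth muscle, had 197, 202, 142 and 247 in the CR arrays, against 209 in the control, and *Acta1*, the actin of skeletal muscle, had 283, 239, 214 and 232 in the CR arrays, against 162 in the control. *Acta2* had CR arrays on both sides of the control, while *Acta1* was above it on all of them, and neither passed (-0.11 ± 0.33 and 0.57 ± 0.17). *Actg2*, of visceral smooth muscle, was below the filter at 19.8 to 67.0 in CR and 35.0 in the control.

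Markers of the muscle cells that use *Acta2* and *Acta1* are given beside them. Of 7 smooth muscle and pericyte markers, 6 passed the filter, *Tagln* was lower (-0.83) and *Myl9* higher (0.56), and their summed signal was 1330 to 1392 on the CR arrays and 1367 on the control. The 8 skeletal and cardiac muscle markers summed to 4037 to 5294 on the CR arrays and 1973 on the control. Of the 8, 7 had every CR array above the control, as *Acta1* did, against 37.1% of all probe sets tested. Several of the 8 did not pass the filter, and over all probe sets below it the median difference was 0.99. Of the 3 that passed the filter 1, *Myh1*, was higher, with 3712, 3788, 5029 and 4307 in the CR arrays, against 1822 in the control. The other 7 had signals of at most 156 on any array, and *Mb*, the oxygen-binding protein of muscle, had at most 9.6.

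The beta actin gene is represented here only by the 3 control probe sets that Affymetrix places along its transcript, which are not members. At the 3′ end they read 2356, 2278, 2222 and 2142 in the CR arrays, against 3946 in the control, in the middle 764, 725, 698 and 696 in the CR arrays, against 1897 in the control, and at the 5′ end 476, 326, 403 and 470.2 in the CR arrays, against 1061 in the control. All 3 were lower in CR, by -0.81 ± 0.058, -1.40 ± 0.063 and -1.36 ± 0.25 on the log2 scale. The ratio of 3′ to 5′ signal, on the log2 scale, was 2.19 to 2.80 on the CR arrays and 1.90 on the control, so the size of the difference for this transcript depended on where along it the probes lie. The same ratio for *Gapdh*, a housekeeping gene with such control probe sets, was 0.40 to 0.79 on the CR arrays and 0.19 on the control. The part of this shift in the lower signals of actin and tubulin genes was not tested.

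Actin genes are known targets of serum response factor, which binds the CArG box, a short motif of CC and GG around a run of A and T. In the 250 bases before the start of each RefSeq gene (GRCr8), 4 of the 91 windows of 85 members held a CArG box on either strand (4.4%), against 1.5% of all 33469 windows. They were those of *Acta1*, *Actg1*, *Kif20b* and *Kif6*. The 200 bases before the start of the 2 actins are shown because 1 of them was lower in CR and the other was not called, with the CArG box in capitals and, in *Acta1*, TATAAA in capitals as well. *Actg1* lies at chr10:106120952-106121151 and *Acta1* at chr19:68784195-68784394, both read on the minus strand.
Actg1: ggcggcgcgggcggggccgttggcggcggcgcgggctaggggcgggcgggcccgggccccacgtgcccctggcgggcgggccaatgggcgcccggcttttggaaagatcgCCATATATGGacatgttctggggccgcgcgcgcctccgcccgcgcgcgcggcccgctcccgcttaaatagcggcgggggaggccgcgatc
Acta1: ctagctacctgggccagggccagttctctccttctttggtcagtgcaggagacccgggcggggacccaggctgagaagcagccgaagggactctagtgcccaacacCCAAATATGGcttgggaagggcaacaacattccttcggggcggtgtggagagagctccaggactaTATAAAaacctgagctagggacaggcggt
The box ended 81 bases before the start of *Actg1* and 85 bases before that of *Acta1*. A match of letters is not a site of binding. Of 7 symbols listed for the serum response factor pathway, some of them older names of the same genes, 4 were on the array and passed the filter. Of these 1, the cofactor *Elk4*, was higher (0.83), and 0 were lower.

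The actin related proteins (Arps) include parts of the Arp2/3 complex, of dynactin and of nuclear chromatin remodellers. Calls on their brightest probe sets differed in direction, and for some genes the probe sets disagreed. *Actr2*, the Arp2 subunit of the complex that branches actin filaments, had 4398, 4544, 5309 and 4674 in the CR arrays, against 3007 in the control, and was higher in CR (0.65 ± 0.12, adjusted p = 0.0036). Its probe set is of the kind that can match several transcripts, and the 2 other tested probe sets of *Actr2* were not called (0.30 and -0.042, adjusted p = 0.081 and 0.83). The call was also lost with median scaling (0.22, adjusted p = 0.17), without the intensity trend and with the mean over its probe sets (0.30, adjusted p = 0.055 and 0.054). A probe set of *Actr2-ps1*, a pseudogene by its symbol, was below the filter and not tested. *Actr1b*, an actin related subunit of dynactin, was also higher, with 868, 929, 899 and 900.4 in the CR arrays, against 656 in the control (0.45 ± 0.040, adjusted p = 0.020). On this probe set the CR arrays of *Actr1b* lay close together and all above the control. A dimmer probe set of *Actr1b* was called lower (-0.95 ± 0.33, adjusted p = 0.023 by limma).

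Other Arps were lower on their brightest probe set. *Actr10*, which caps the short filament of dynactin, had 708, 654, 699.6 and 781 in the CR arrays, against 1227 in the control (-0.79 ± 0.11). Its dimmer probe set was called higher (0.48 ± 0.082, adjusted p = 0.030 by limma). *Actr6* and *Actr8*, subunits of nuclear remodelling complexes, had 252, 240.2, 264 and 323 in the CR arrays, against 481 in the control, and 365, 299, 285 and 309 in the CR arrays, against 507 in the control. Their differences were -0.84 ± 0.19 and -0.70 ± 0.16. The adjusted p of *Actr10*, *Actr6* and *Actr8* on the brightest probe set was 0.0029, 0.012 and 0.019 by limma. Another nuclear subunit, *Actr5*, had a difference of 0.089, *Actr1a*, the main dynactin Arp, had -0.15 and *Actr3b* had -0.67, and none of these passed. A dimmer probe set of *Actr1a* was called lower, with 77.9, 72.3, 93.6 and 115 in the CR arrays, against 307 in the control (-1.80 ± 0.30, adjusted p = 0.0029).

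Of the 7 *Arpc* genes, which code for the other subunits of the Arp2/3 complex, 3 were lower in CR, 0 were higher, and 6 had every CR array below the control. *Arpc2*, a core subunit that holds the complex together, had 847, 706, 724 and 894 in the CR arrays, against 1582 in the control. It was 2.01-fold lower in CR (-1.004 ± 0.17, adjusted p = 0.0018). *Arpc1a* had 736, 811, 847 and 957 in the CR arrays, against 1285 in the control, so that the value at 30% CR was nearest to the control (-0.62 ± 0.16, adjusted p = 0.014). *Arpc5* had 922, 959.9, 854 and 928 in the CR arrays, against 1349 in the control (-0.56 ± 0.071, adjusted p = 0.0085). *Arpc4*, *Arpc1b* and *Arpc5l* had differences of -0.32, -0.29 and -0.27 and did not pass, and *Arpc3* was the 1 subunit with all CR arrays above the control (0.28, not passed). The 1 call of this complex in the other direction was that of *Actr2* on its brightest probe set.

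Profilin binds single actin molecules and feeds them to growing filaments, and cofilin severs old filaments. All 3 genes of these families that were measured passed and were lower on their brightest probe set. *Pfn1*, the profilin of most cells, had 429, 322, 372 and 457 in the CR arrays, against 984 in the control. This was a difference of -1.33 ± 0.22, or 2.51-fold (adjusted p = 0.0014), with every CR array far below the control. *Pfn2*, the profilin enriched in neurons, had 1915, 1914, 1943 and 1986 in the CR arrays, against 2476 in the control, a smaller difference with CR arrays that lay close together (-0.35 ± 0.025, adjusted p = 0.028). *Pfn2* no longer passed without the 5% or the 10% CR array (adjusted p = 0.070 and 0.055). *Cfl2*, a cofilin best known from muscle, had 1259, 1255, 1142 and 1312 in the CR arrays, against 1748 in the control (-0.50 ± 0.085, adjusted p = 0.014). A dimmer tested probe set of *Cfl2* lay the other way, with 180, 158, 198 and 159 in the CR arrays, against 120 in the control (0.53 ± 0.16, not passed).

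Tropomyosins lie along actin filaments and stabilise them. *Tpm4* was lower, with 343, 289, 269.6 and 239.7 in the CR arrays, against 465 in the control (-0.72 ± 0.22, adjusted p = 0.029). It was the only tropomyosin called on its brightest probe set, and its signal was lower at each higher level of CR. *Tpm1* (0.095), *Tpm2* (0.61) and *Tpm3* (-0.28) did not pass, but *Tpm1* had a dimmer probe set that was lower (-1.95 ± 0.86, adjusted p = 0.046) and the probe sets of *Tpm3* disagreed, as given with the other such genes.

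**Figure D2:**
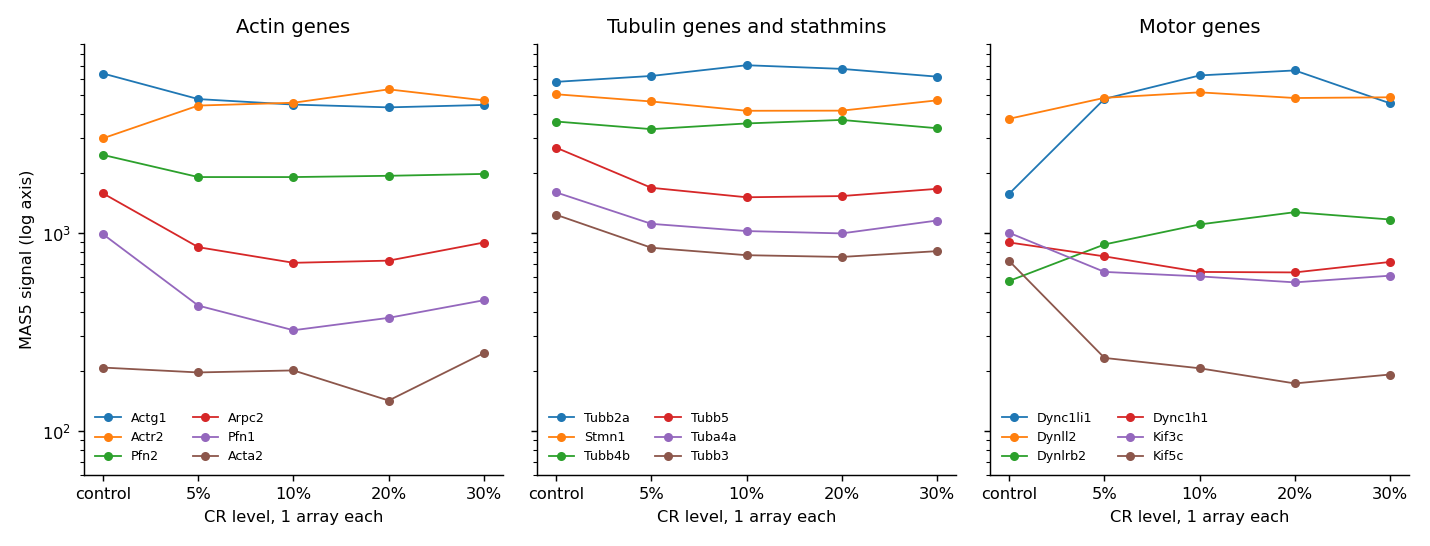
MAS5 signal (y axis, log scale) of 6 genes of each class on the control array and at 5, 10, 20 and 30% CR (x axis, 1 array of pooled RNA each). Most lines step between the control and 5% CR and then stay level, as for *Kif5c* at 174 to 234 in CR and 720 in the control.

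Among the beta tubulins, which pair with alpha tubulin to form the microtubule wall, 3 of 6 tested genes were lower in CR and 0 were higher. *Tubb5*, a widely expressed beta tubulin, had 1689.7, 1513, 1535 and 1669 in the CR arrays, against 2694 in the control. It was 1.68-fold lower (-0.75 ± 0.082, adjusted p = 0.0016). *Tubb3*, the beta tubulin that marks neurons, had 841, 772, 756 and 809 in the CR arrays, against 1234 in the control (-0.64 ± 0.069, adjusted p = 0.0052), and *Tubb2b*, which is needed for neuronal migration, had 1576, 1591, 1449 and 1476 in the CR arrays, against 2005 in the control (-0.40 ± 0.067, adjusted p = 0.026). In all 3 the CR arrays lay close together and below the control.

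The other 3 tested beta tubulins did not follow them. *Tubb2a* had 6205, 7029, 6738 and 6156 in the CR arrays, against 5794 in the control, *Tubb4b* had 3342, 3572, 3720.1 and 3379 in the CR arrays, against 3652 in the control, and *Tubb4a*, the beta tubulin of the brain and of myelinating cells, had 3537, 3734, 3625 and 3571 in the CR arrays, against 2966 in the control. Their differences were 0.17 ± 0.093, -0.061 ± 0.072 and 0.29 ± 0.034, and the adjusted p of *Tubb4a* was 0.0502. The direction of *Tubb2a* turned to -0.17 with quantile scaling, -0.26 with median scaling and -0.038 with cyclic loess, and that of *Tubb4a* to -0.15 with median scaling. The beta tubulin genes are close in sequence and the probe sets used for *Tubb3* and *Tubb4a* are of the kinds that can match several transcripts, so their signals may not be those of 1 gene. *Tubb1* and *Tubb6* were below the filter.

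TATAAA, the core of the TATA box that positions transcription at some genes, was found in the 250 bases before the start of *Tubb2a* and *Tubb4b* and not in those of *Tubb5*. On either strand it was in 9 of the 91 member windows (9.89%) and in 12.9% of all windows. The 200 bases before the start of these 3 genes are shown because *Tubb5* was lower in CR and the other two were not called, with TATAAA in capitals. They lie at chr20:2917377-2917576 (plus strand), chr17:31001986-31002185 (plus strand) and chr3:28438456-28438655 (minus strand) in GRCr8.
Tubb5: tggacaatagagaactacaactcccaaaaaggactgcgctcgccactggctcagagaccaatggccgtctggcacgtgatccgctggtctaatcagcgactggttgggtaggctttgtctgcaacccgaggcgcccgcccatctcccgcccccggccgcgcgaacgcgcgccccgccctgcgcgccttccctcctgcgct
Tubb2a: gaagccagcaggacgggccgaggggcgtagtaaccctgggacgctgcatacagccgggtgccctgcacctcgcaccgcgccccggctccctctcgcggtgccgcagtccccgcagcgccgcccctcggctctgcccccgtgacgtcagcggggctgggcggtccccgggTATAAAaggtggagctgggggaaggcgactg
Tubb4b: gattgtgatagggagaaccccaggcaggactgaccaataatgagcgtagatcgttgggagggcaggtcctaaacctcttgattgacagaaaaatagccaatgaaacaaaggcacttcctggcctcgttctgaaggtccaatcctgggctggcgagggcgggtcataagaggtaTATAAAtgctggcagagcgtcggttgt
The motif began 31 bases before the start of *Tubb2a* and 27 bases before that of *Tubb4b*. The motif CCAAT was in 39.6% of the member windows and 34% of all windows, and CACGTG was in 6.59% and 5.59%.

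Of the 2 alpha tubulins analysed, *Tuba4a*, an adult form found in brain and muscle, was lower, with 1111, 1022, 994 and 1155 in the CR arrays, against 1601 in the control (-0.58 ± 0.10, adjusted p = 0.0084). *Tuba8* had 98.1, 118, 125 and 122 in the CR arrays, against 116 in the control, with CR arrays on both sides of the control (-0.014 ± 0.16). Gamma tubulin and its ring complex, which start new microtubules, had 4 genes tested and 0 called. *Tubg1* was nearest, with 326, 356, 327 and 343 in the CR arrays, against 439 in the control (-0.38 ± 0.061, adjusted p = 0.099), and *Tubgcp2*, *Tubgcp6* and *Tubgcp4* had -0.32, -0.18 and 0.17.

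The stathmins, which bind free tubulin, had 1 call among 4 genes. *Stmn2*, a stathmin of neurons that is needed for axon upkeep, had 1829, 1893, 1877 and 2004 in the CR arrays, against 2529 in the control (-0.41 ± 0.055, adjusted p = 0.018). *Stmn1*, the founding member, had 4611, 4139, 4145 and 4672 in the CR arrays, against 5015 in the control, and *Stmn4* had 1389, 1169, 1229.8 and 1643 in the CR arrays, against 1775 in the control. Both lay below the control on all 4 CR arrays and did not pass (-0.19 ± 0.095 and -0.40 ± 0.22), although *Stmn4* passed without the 30% CR array (adjusted p = 0.021). *Stmn3* had a difference of 0.086, which was -0.079 with quantile scaling and -0.35 with median scaling, where it passed as lower (adjusted p = 0.027). General neuron markers, the background for *Tubb3* and *Stmn2*, summed to 10992 to 12092 on the CR arrays and 11163 on the control over 6 genes, of which 1 was higher and 0 were lower among 5 tested. The 5 oligodendrocyte markers summed to 19201 to 20677 on the CR arrays and 19941 on the control, with *Mog* lower (-1.35), and the 5 astrocyte markers to 9442 to 10123 on the CR arrays and 10318 on the control, with *Aldh1l1* lower (-0.89) and 0 higher in either list.

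Among the motors, kinesin heavy chains and their partners had 17 genes tested, 3 lower, 1 higher and a median of -0.28. *Kif5c*, a neuronal form of conventional kinesin that carries vesicles and RNA along axons and dendrites, had the lowest difference of the tested members, with 234, 207, 174 and 193 in the CR arrays, against 720 in the control. It was 3.59-fold lower (-1.84 ± 0.18, adjusted p = 3.9e-04). Its relatives *Kif5a* and *Kif5b* had 1143, 1108, 1088 and 1278 in the CR arrays, against 1416 in the control, and 1809, 1720, 2124 and 1906 in the CR arrays, against 1593 in the control. *Kif5a* was below the control and *Kif5b* above it on every CR array, by -0.30 ± 0.10 and 0.24 ± 0.13, and neither passed. These values are those of the brightest probe sets. A dimmer *Kif5a* probe set was called lower, with 160.3, 143, 111 and 142 in the CR arrays, against 489 in the control (-1.83 ± 0.22, adjusted p = 8.8e-04 by limma).

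The other kinesins that were lower were *Kif3c*, which pairs with *Kif3a* in a motor of neurons, and *Kif1c*, a vesicle motor. *Kif3c* had 635, 603, 562 and 608 in the CR arrays, against 1000.3 in the control (-0.73 ± 0.073, adjusted p = 0.0036). *Kif1c* had 235, 231, 232 and 243 in the CR arrays, against 405 in the control, with CR arrays that were nearly equal (-0.78 ± 0.034, adjusted p = 0.0082). *Kif3a* and *Kif3b* had -0.65 and 0.43 and did not pass, nor did *Kif1a*, the motor of synaptic vesicle precursors, with 220.3, 156, 210 and 161 in the CR arrays, against 116 in the control (0.68 ± 0.26, adjusted p = 0.080). Another tested probe set of *Kif3a*, slightly dimmer, lay the other way (0.68 ± 0.14, not passed). *Kif26b*, an atypical kinesin, was higher, with 183, 238, 209 and 192 in the CR arrays, against 122 in the control (0.75 ± 0.17, adjusted p = 0.032), and this call was lost without the 10% or the 20% CR array (adjusted p = 0.061 and 0.056). A dimmer tested probe set of *Kif26b* had a difference of 0.017 ± 0.15 and did not pass.

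Kinesin light chains link the motor to its cargo. *Klc2* was higher, with 652, 645, 661 and 749 in the CR arrays, against 459 in the control (0.56 ± 0.10, adjusted p = 0.017). *Klc1*, the neuronal light chain, had 1659.5, 1637, 1549.7 and 1748 in the CR arrays, against 1832 in the control on its brightest probe set (-0.15 ± 0.071, not passed) and *Klc4* had 0.15.

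Cytoplasmic dynein 1 is the motor that moves cargo back to the cell body, and its subunits differed from each other. *Dync1li1*, a light intermediate chain that attaches adaptors to the motor, had 4753, 6243, 6617 and 4515 in the CR arrays, against 1579.8 in the control. This was the highest difference of the tested members, 3.45-fold (1.79 ± 0.28, adjusted p = 3.9e-04). The CR array nearest to the control, at 30% CR, was still 1.52 above it on the log2 scale. The other light intermediate chain, *Dync1li2*, had 1947, 2133, 1829 and 1901 in the CR arrays, against 1829 in the control (0.092 ± 0.094). The motor subunit itself, *Dync1h1*, had 761, 635, 632 and 713 in the CR arrays, against 895 in the control, and the intermediate chain *Dync1i1* had 762, 682, 650.1 and 777 in the CR arrays, against 920.1 in the control. Both lay below the control on all CR arrays without passing (-0.39 ± 0.13 and -0.36 ± 0.12), and *Dync1i2* had 0.0055.

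The dynein light chains, small subunits shared with other complexes, had 3 genes higher, 0 lower and a median of 0.19 over 7 tested. *Dynlrb2*, a roadblock chain known from ciliated tissue, had 874, 1103, 1273 and 1169 in the CR arrays, against 572 in the control (0.94 ± 0.23, adjusted p = 0.0055). *Dynlt1*, a Tctex chain, had 692, 617, 599.9 and 625 in the CR arrays, against 395 in the control (0.68 ± 0.090, adjusted p = 0.0068). *Dynll2* had 4811, 5129, 4801 and 4842 in the CR arrays, against 3773 in the control (0.38 ± 0.045, adjusted p = 0.017), a small difference that turned to -0.060 with median scaling. A dimmer tested probe set of *Dynll2* lay the other way, with 585, 600.3, 625 and 696 in the CR arrays, against 729 in the control (-0.22 ± 0.11, not passed). *Dynlrb1*, the roadblock chain of most cells, had 0.19, and *Dynlt3*, *Dynlt2b* and *Dynlt5* had -0.0078, 0.0045 and -0.026. The family medians of the kinesin light chains and the dynein light chains were positive under the deposited, quantile and loess scaling and negative under median scaling (-0.29 and -0.25).

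Dynein 2, the motor inside cilia, had 4 genes tested, 0 called and a median of 0.037. The 4 markers of motile cilia on the array, all tested, summed to 564 to 620 on the CR arrays and 465 on the control. Of these, *Dnai1*, a dynein chain of the ciliary axoneme, was higher (0.79) and *Foxj1*, the master regulator of motile cilia, had 70.9 to 87.8 in CR and 74.3 in the control. The 3 markers of the choroid plexus, whose epithelium is also ciliated, summed to 194 to 281 on the CR arrays and 111 on the control, with *Ttr* higher (1.93, adjusted p = 0.0045 by limma) and *Folr1* not passed. The part of ciliated cells in the value of *Dynlrb2* was not tested.

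The 21 members that did not pass the filter were dim on every array, with no signal above 89.1, and 16 of them were motors. Their CR mean was above the control in 17 and below it in 4, and 13 had a control signal under 20, where a ratio of MAS5 signals is imprecise. Over all 15521 probe sets below the filter the median difference was 0.99, above 0 as for most of these members. *Kif1b*, a motor of mitochondria and synaptic vesicle precursors, was among them with 21.7, 19.4, 13.3 and 42.8 in the CR arrays, against 2.9 in the control. So were the 11 kinesins that serve cell division, among them the spindle motors *Kif11*, *Kif18a* and *Kif23*, a set put together after the values were seen. Their signals reached 82.5 at most, and the 6 markers of dividing cells, which include *Mki67* and *Top2a*, reached 88.7 at most, with 0 tested.

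The calls were on bright probe sets. All 27 called members lay above the 75th percentile of mean signal, where 61 members were tested and 31.1% were lower and 13.1% higher, against 16.4% and 15.7% of all probe sets there. Between the 50th and the 75th percentile 0 of 16 members were called by limma, against 5.62% lower and 13.2% higher among all probe sets in that range.

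**Figure D3:**
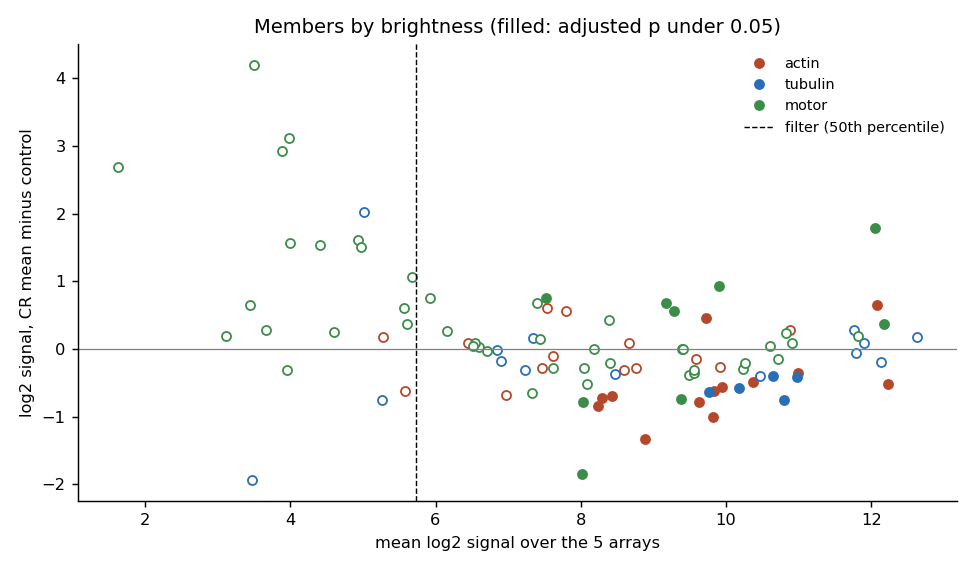
Log2 difference between the CR mean and the control (y axis) against mean log2 signal over the 5 arrays (x axis) for the 98 members, coloured by class and filled for an adjusted p by limma under 0.05, with the filter as a dashed line. The filled points lie well to the right of the filter, and most of the 21 points left of it lie above 0.

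At each level of CR the array was set against the control by itself, with no test, at 1.5-fold. At 5% CR 11 members were lower and 7 higher (14.7% and 20.7% of all probe sets tested), and at 10% CR 16 were lower and 7 higher (16.6% and 21.9%). At 20% CR 16 were lower and 7 higher (17.1% and 22.6%), and at 30% CR 11 were lower and 7 higher (13.7% and 19.5%). The median over the members was -0.17, -0.24, -0.16 and -0.11 at 5, 10, 20 and 30% CR. The 4 levels share the control array, so their values are not independent of each other.

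A slope over the level of CR was fitted to the 4 CR arrays without the control. By limma, 0 members and 0% of all probe sets tested passed after adjustment. At an unadjusted p under 0.05 there were 2 members of 77 (2.6%), against 743 of the 15521 probe sets (4.79%). They were *Arpc1a*, with a slope of 0.14 on the log2 scale for each 10% of CR, and *Tpm4*, with -0.19. The number of arrays, 4 of 1 pool each, limits what such a slope can show.

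Several genes had probe sets that disagreed. Of the 39 members with more than 1 probe set, 23 had more than 1 tested, and in 13 of these (56.5%) the probe sets differed in sign, against 48.3% of 1873 genes in all. In 5 members (21.7%) a probe set was called in each direction, against 4% of those 1873 genes. The number of probe sets per gene was not matched in this comparison. Probe sets of a gene can cover different exons or ends of its transcripts, and the files do not place them, so which transcripts were measured was not tested.

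*Actg1* had a dim second probe set that was higher in CR, with 91.9, 76.4, 73.7 and 96.7 in the CR arrays, against 32.0 in the control (1.39 ± 0.19). For *Actr10* the second probe set was higher, with 622, 654, 585 and 579 in the CR arrays, against 437 in the control (0.48 ± 0.082), and for *Actr1b* it was lower, with 314, 324, 213 and 219 in the CR arrays, against 507 in the control (-0.95 ± 0.33). The direction given for these 3 genes therefore holds for the brightest probe set only. *Klc1* had 1 probe set at 66.9, 34.8, 73.8 and 32.7 in the CR arrays, against 317 in the control, and another at 75.4, 81.5, 90.3 and 48.1 in the CR arrays, against 26.6 in the control, with differences of -2.70 ± 0.62 and 1.43 ± 0.40. *Tpm3*, with 12 probe sets, had 1 at 338, 361, 343 and 319.8 in the CR arrays, against 1119.5 in the control (-1.72 ± 0.072) and a dim one at 89.1, 110.1, 96.3 and 50.5 in the CR arrays, against 20.6 in the control (2.01 ± 0.50).

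Other genes had a second probe set in the same direction. *Pfn2* was at 122, 79.9, 134 and 142 in the CR arrays, against 688 in the control on its second probe set (-2.56 ± 0.37), and *Stmn2* at 1535, 1343, 1442 and 1753 in the CR arrays, against 3135 in the control (-1.05 ± 0.16). *Arpc2* and *Tubb5* were lower on both of their probe sets, at -1.63 and -0.62 on the second. For these 4 genes the lower signal in CR was called on 2 probe sets each. *Tubb3* had a dim untested probe set at 109, 60.9, 81.6 and 35.5 in the CR arrays, against 3.2 in the control, which is opposite to its tested one, and with the mean over both probe sets *Tubb3* was called higher (1.87, adjusted p = 0.0024). The tested members with the lowest and the highest difference, *Kif5c* and *Dync1li1*, also had dim untested probe sets on the other side of 0. These were at 0.74 and 0.81 for *Kif5c* and -0.97 for *Dync1li1*. With the mean log2 signal over all probe sets of a gene, *Kif5c* was at -0.098 and *Dync1li1* at 0.41 and neither passed (adjusted p = 0.87 and 0.35 by limma). Over the 113 tested probe sets of the members, 33 were lower and 12 higher, against 11% and 14.5% of all probe sets tested. Some of the 113 belong to the same gene, so this count is not independent of the count of genes.

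**Figure D4:**
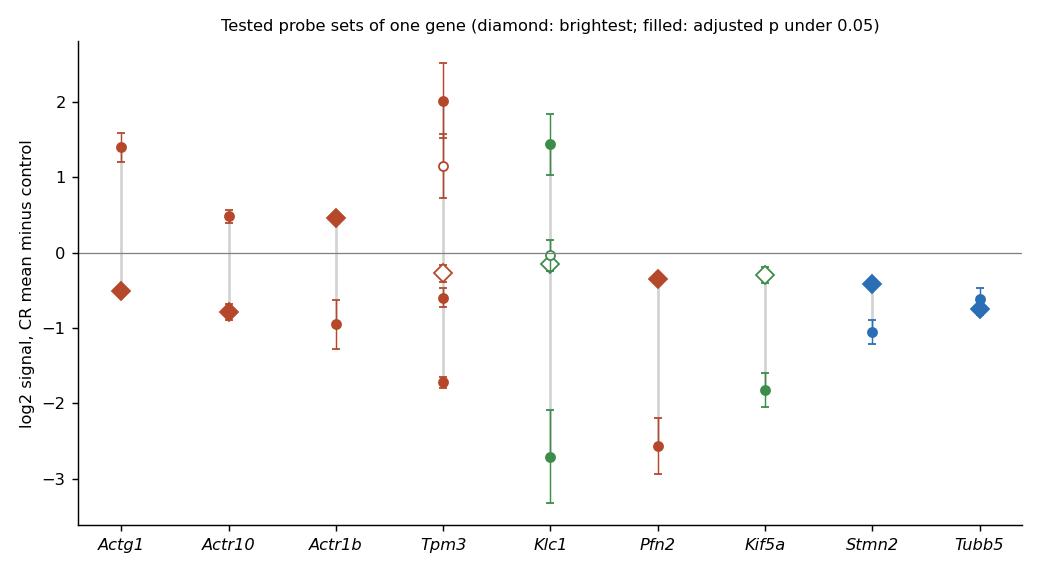
Log2 difference between the CR mean and the control (y axis, bars are the SD over the 4 CR arrays) for each tested probe set of 9 genes (x axis), with the brightest as a diamond and filled for an adjusted p by limma under 0.05. The probe sets of *Actg1*, *Actr10*, *Actr1b*, *Tpm3* and *Klc1* lie on both sides of 0 with a call on each, and both probe sets of *Tubb5* lie below 0.

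The proteins that act on actin filaments had calls in both directions, at shares near those of all probe sets tested. Of 35 actin regulators, 29 were tested, with a median of -0.056. Of the 29, 4 were lower and 3 higher (13.8% and 10.3%), against 11% and 14.5% of all probe sets tested. Lower were 3 genes of capping and recycling, *Capza2* with 324, 346, 299.6 and 286 in the CR arrays, against 726 in the control (-1.21 ± 0.12), *Capzb* at -0.94 and *Cap1* at -0.79, as was *Brk1*, a subunit of the WAVE complex that activates Arp2/3 (-0.60). *Limk1*, the kinase that switches cofilin off, was higher with 255, 229, 255 and 191 in the CR arrays, against 99.3 in the control (1.22 ± 0.20), as were *Wasf1*, another WAVE subunit (0.64), and *Tmsb4x*, which holds single actin molecules in reserve (0.48). Among 8 myosin genes tested 1 was lower (*Myl12b*, -0.52) and 1 higher (*Myl9*).

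The proteins that act on microtubules also had calls in both directions. Of 19 microtubule associated proteins tested, 3 were lower and 3 higher, with a median of -0.33. This was 15.8% each way, near the 11% lower and 14.5% higher of all probe sets tested. Of the EB proteins, which ride on growing microtubule ends, *Mapre1* had 363, 336, 326 and 354 in the CR arrays, against 677 in the control (-0.98 ± 0.072), *Mapre2* was also lower (-0.996) and *Mapre3* was higher, with 2831, 2899, 3146 and 2846 in the CR arrays, against 1766 in the control (0.73 ± 0.071). *Clip2*, which also tracks microtubule ends, was lower (-0.87), and the structural proteins *Map1a* and *Map1b* were higher (0.61 and 0.34). Of 11 genes of tubulin folding and modification, the tubulin deacetylases *Hdac6* (-1.11) and *Sirt2* (-0.77) were lower and the folding cofactor *Tbca* was higher (0.56).

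Of 9 genes of dynactin, the complex that joins dynein to cargo, and of dynein regulators, *Dctn2* (-0.64) and *Dctn5* (-0.51) were lower and *Dctn6* was higher, with 1312, 1349.9, 1330 and 1314 in the CR arrays, against 792 in the control (0.74 ± 0.019). Of 5 cargo adaptors tested 1 was higher, *Trak1*, which links kinesin to mitochondria (0.61), and 0 were lower. Intermediate filaments, the third filament system, had 8 genes tested, with *Vim* lower (-0.59) and *Nefm* (0.44) and *Lmnb1* (0.69) higher. All calls in these lists are by the same limma fit on the deposited scaling, against 11% lower and 14.5% higher over all probe sets, and other scalings were not run for them.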

How the data were processed

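Brain RNA was measured on Affymetrix rat arrays, 1 array per pool of 5 rats. The authors deposited linear signal intensity, made with MAS5 according to the submitters' processing notes. MAS5 subtracts mismatch signal, so low values are noisy and their ratios imprecise. The 5 columns of the 1 month arrays were not used, since their log2 signals correlated with the 1 week columns at 0.036 to 0.052 and their rows do not follow the probe set identifiers.

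Log2 of the signal was used with no pseudocount, and the 4 zeros were replaced by 0.1. Genes were named from the platform annotation (20832 probe sets with 1 symbol, 436 with several, 9831 with none), and 57 control probe sets were left out. R 4.3.3 with limma 3.58.1 (lmFit, eBayes with an intensity trend) compared 4 CR arrays with 1 control array (3 residual degrees of freedom) and fitted a slope over CR level (2 residual degrees of freedom), with Benjamini-Hochberg adjustment over 15521 probe sets. Both fits were tested on simulated data. The number of arrays limits the precision. Promoter stretches are from RefSeq (GRCr8), found for 85 of 98 members. Figures were drawn with Python 3.11.15 and matplotlib 3.10.9.

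The members and lists were chosen with earlier results of these data known. Named with values were up to 6 members per class and direction that passed, had the control outside the range of the CR arrays and had the largest difference, 38 fixed members (32 were analysed here), up to 3 per class with the largest slope, those with probe sets called in both directions, and up to 3 partner genes per list and direction. Other members, and *Brk1*, were named after their values were seen. Alternatives were quantile, median and cyclic loess scaling, no filter or one at the 75th percentile, adding 13.7 to each signal (their 20th percentile), eBayes without a trend or robust, the mean over a gene's probe sets, keeping *Cflar* and *Tpmt*, leaving out each CR array, and 2-fold for 1.5-fold. The result of 1 partner list is not reported here.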

Additional observations from a re-analysis of the deposited data

Results flagged for a closer look

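Among 47 named members, 2 had 1 CR array far from the other 3, a gap that chance gives in about 1 of 20 groups. *Klc2* had a signal of 749.2 at 30% CR, against 645 to 661 on the other CR arrays, a gap of 0.838 of the range on the log2 scale. *Dynll2* had 5128.8 at 10% CR, against 4801 to 4842 on the other CR arrays, a gap of 0.872 of the range. Both lay further above the control array than the rest, and both genes stayed higher in CR by limma when that array was left out.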

How the results depend on the processing

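The limits are those of 1 control array of pooled RNA, of dim probe sets, where MAS5 signals are close to background, and of probe sets that share sequence between genes. The causes of the changes given here were not tested, except that a setting with fewer probe sets or arrays tests fewer of them.

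Median scaling gave 1 member higher and 44 lower, with class medians of -0.75 for actin, -0.69 for tubulin and -0.42 for motors. It moves every difference down by the same amount. Under it all 19 lower members were still called, and 7 of the 8 higher members stayed above 0 with 1 still called. The actin median was -0.24 with quantile scaling. The tubulin median was -0.33 with cyclic loess, -0.32 with no filter, -0.39 with the filter at the 75th percentile and -0.19 with the mean over a gene's probe sets. The motor median was -0.025, -0.088, 0.19, -0.0078 and -0.017 with quantile scaling, cyclic loess, no filter, the 75th percentile and the mean over probe sets. Without the intensity trend 4 members were higher and 9 lower, against 11.2% and 6.48% of all probe sets tested. With the mean over probe sets 5 of 73 members were higher and 15 lower (6.85% and 20.5%), against 15.1% and 10.2% of all that were tested in that setting. Leaving out each CR array in turn gave 7 to 8 members higher and 18 to 20 lower, against 12.4 to 14.6% and 9.64 to 11.9% of all probe sets tested. Class medians were then -0.35 to -0.30 (actin), -0.29 to -0.20 (tubulin) and -0.012 to 0.059 (motors, lowest without the 30% CR array). The slope had 0 members called in every setting run, with 1 to 4 at an unadjusted p under 0.05 by limma. At 2-fold, 3, 6, 5 and 4 members differed at 5, 10, 20 and 30% CR, and the share of all probe sets at 2-fold is not given here.

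Among the 25 named members that were called, 6 kept their call in every setting run, 18 lost it in at least 1, and 4 changed direction. These were *Actr1b* (-0.25), *Tubb3* (1.87) and *Actg1* (0.44) with the mean over probe sets and *Dynll2* (-0.060) with median scaling, of which *Tubb3* passed in the opposite direction. Of the 21 tested named members that were not called, 12 passed in at least 1 setting, *Stmn3* in the opposite direction, and 11 changed direction. With the mean over probe sets these were *Tubb4a* (-0.045), *Kif1a* (-0.0059), *Kif3a* (0.016) and *Kif5b* (-0.12). With median scaling they were *Tpm1* (-0.34), *Tubb2a* (-0.26), *Tubb4a* (-0.15), *Stmn3* (-0.35), *Kif5b* (-0.19), *Dynlt2b* (-0.43) and *Dync2i2* (-0.40), with quantile scaling *Tubb2a* (-0.17), *Stmn3* (-0.079) and *Dync2i2* (-0.096), and with cyclic loess *Tubb2a* (-0.038), *Stmn3* (-0.054) and *Dync2i2* (-0.17). Leaving out 1 CR array at a time, *Acta2* ran from -0.23 to 0.037 (above 0 without the 20% array), *Tuba8* from -0.053 to 0.064 (above 0 without the 5% array), and *Dynlt2b* from -0.083 to 0.085 and *Dync2i2* from -0.027 to 0.13 (both below 0 without the 20% or the 30% array). No paired analysis was possible because each group is 1 array and the labels carry no replicate numbers.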
